A study of Rattus norvegicus with 109 samples.

Results

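Agtr1a and Agtrap are 2 of the 19 transcripts that were measured by quantitative PCR in the nucleus of the solitary tract (NTS) of the rat. They were chosen by name, as the angiotensin II receptor and the protein that binds it, and both were followed over all 109 laser-captured tissue sections. The tissue was from 2 strains, the spontaneously hypertensive rat (SHR) and its normotensive relative, the Wistar Kyoto rat (WKY). Rats of the strains were matched for age, and neither the age nor the sex is given in the sources used here. Each strain had 3 procedures. "Cocktail" rats were injected with 25 µL of artificial cerebrospinal fluid that held inhibitors of miR-135a and of miR-376a, both locked nucleic acids, in equal parts at 10 µM. "Scrambled" was a locked nucleic acid that matches no known microRNA or transcript, and "Sham" rats had a cannula through which only an empty needle was placed. Counted by the labels' animal numbers, the WKY groups held 4 rats (Cocktail, 27 sections), 5 rats (Scrambled, 15 sections) and 3 rats (Sham, 8 sections). The SHR groups held 5 rats (Cocktail, 17 sections), 2 rats (Scrambled, 15 sections) and 1 rat (Sham, 27 sections). Rat number 4614 stands under both WKY Cocktail and WKY Scrambled, so the 20 sets of sections come from 19 animal numbers, and each set was counted as a rat. The rat was the replicate, since sections of a rat share the animal. The labels give neither chip nor run, and a run that held only 1 strain cannot be told apart from that strain.

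Angiotensin II acts in the brain mostly through the type 1 receptor, a G protein-coupled receptor, of which rodents have 2 genes, Agtr1a and Agtr1b. In the NTS, where baroreceptor afferents end, this receptor is known to blunt the baroreceptor reflex, and central angiotensin signalling is known to be raised in SHR. Agtrap encodes a membrane protein that binds the tail of the receptor and favours its internalisation. Agtr1b was not among the 19 genes, and whether the Agtr1a primers also amplify it was not tested, as primer sequences were not used here.

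The labels name the microRNAs that the Cocktail inhibits without the arm of the hairpin, so both mature arms of each are shown, as RefSeq gives them for assembly GRCr8. Capitals mark the seed, bases 2 to 8, with which a microRNA pairs to its targets.
rno-miR-135a-5p: uAUGGCUUuuuauuccuauguga
rno-miR-135a-3p: uGUAGGGAuggaagccaugaaa
rno-miR-376a-5p: gGUAGAUUcuccuucuaugag
rno-miR-376a-3p: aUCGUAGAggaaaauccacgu
The 4 seeds differed from each other. The seed of rno-miR-135a-5p also occurs in rno-miR-135b-5p, and the other 3 seeds were found in no other mature rat microRNA of the table. Whether the transcripts of Agtr1a or Agtrap hold a match to these seeds was not tested, because no transcript sequence was used here.

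The 250 bases before an annotated transcription start of each gene are shown because Agtr1a was lower and Agtrap higher in SHR after Cocktail. They are from the RefSeq reference of the Brown Norway strain (GRCr8), so they hold none of the alleles of SHR or WKY. Capitals mark 3 motifs, searched on both strands. The TATA box was searched as the letters TATAAA, the CCAAT box as its name spells it, and the GC box as the letters GGGCGG. The first stretch is chr17:34435433-34435682 and the second chr5:163802175-163802424, both on the minus strand and written 5′ to 3′ toward the start of the transcript that the RefSeq table uses.
Agtr1a: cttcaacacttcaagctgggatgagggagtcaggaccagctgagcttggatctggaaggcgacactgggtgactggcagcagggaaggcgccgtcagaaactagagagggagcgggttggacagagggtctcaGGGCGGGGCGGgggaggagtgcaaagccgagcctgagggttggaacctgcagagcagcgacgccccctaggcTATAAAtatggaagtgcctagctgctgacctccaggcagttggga
Agtrap: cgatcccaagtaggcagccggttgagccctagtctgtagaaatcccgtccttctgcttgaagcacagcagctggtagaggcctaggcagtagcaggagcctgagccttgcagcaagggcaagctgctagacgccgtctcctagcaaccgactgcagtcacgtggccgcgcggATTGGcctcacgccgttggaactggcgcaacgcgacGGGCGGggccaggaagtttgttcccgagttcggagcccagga
The Agtr1a stretch held TATAAA once, 45 bases before the start, and 2 overlapping copies of GGGCGG. Agtr1a has 3 transcripts, and its annotated span reaches position 34435523. The part of this stretch nearest the start, TATAAA included, therefore lies inside the annotated gene. The Agtrap stretch held no TATAAA, but a CCAAT box on the opposite strand (ATTGG as printed) 78 bases before the start and a GC box 42 bases before it. Of 33469 rat promoters of this length, 12.9% held such a TATA box, 34.02% a CCAAT box and 30.5% a GC box. TGANTCA, the AP-1 site to which Fos and Jun bind, was found in 6.34% of them and in neither of these stretches. GC content was 60.8% for Agtr1a and 62.4% for Agtrap, against 51.2% over all promoters. These matches describe letters in the reference and were not tested as binding sites.

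Levels are given as minus ΔCt, the deposited normalised value on a log2 scale. A higher value stands for more RNA, and 1 unit is a doubling if product doubles in each cycle. The deposited Ct, the cycle at which product was detected, stands beside it, and the median Ct of a section over its genes serves as a measure of RNA input. A zero level is that of the value subtracted in the section, not an absence of RNA. The median Ct of a section lay between 10.8 and 23.1 in WKY and between 11.3 and 17.1 in SHR. Fewer cells of a type and less RNA per cell cannot be told apart in such sections.

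Agtr1a, the receptor transcript, separated the strains by several doublings. After Cocktail, the 4 WKY rats had mean levels of -1.28 (rat 1701), -1.01 (4607), -2.18 (4612) and -1.35 (4614). The 5 SHR rats of that procedure stood at -3.77 (1694), -5.11 (1696), -5.96 (4595), -3.50 (4598) and -4.41 (4602). All SHR rats after Cocktail thus lay below all WKY rats after Cocktail. The groups were apart, in either direction, for 47.4% of the 19 genes. The WKY Scrambled rats stood at -4.19 (1700), -1.96 (4610), -2.59 (4614), -2.74 (4615) and -1.46 (4618). The WKY Sham rats had -2.17 (4611), -1.63 (4613) and -2.30 (4617). Rat 1700 was the lowest WKY rat and lay among the SHR Cocktail rats, while the other 11 WKY sets were all above every SHR rat. The 2 SHR Scrambled rats stood at -7.45 (4600, from 6 of 14 sections) and -6.48 (4604, 1 section). The single SHR Sham rat, 4596, was at -6.16 over 20 of its 27 sections. These 3 SHR control rats were the lowest of all 20 sets.

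**Figure D1:**
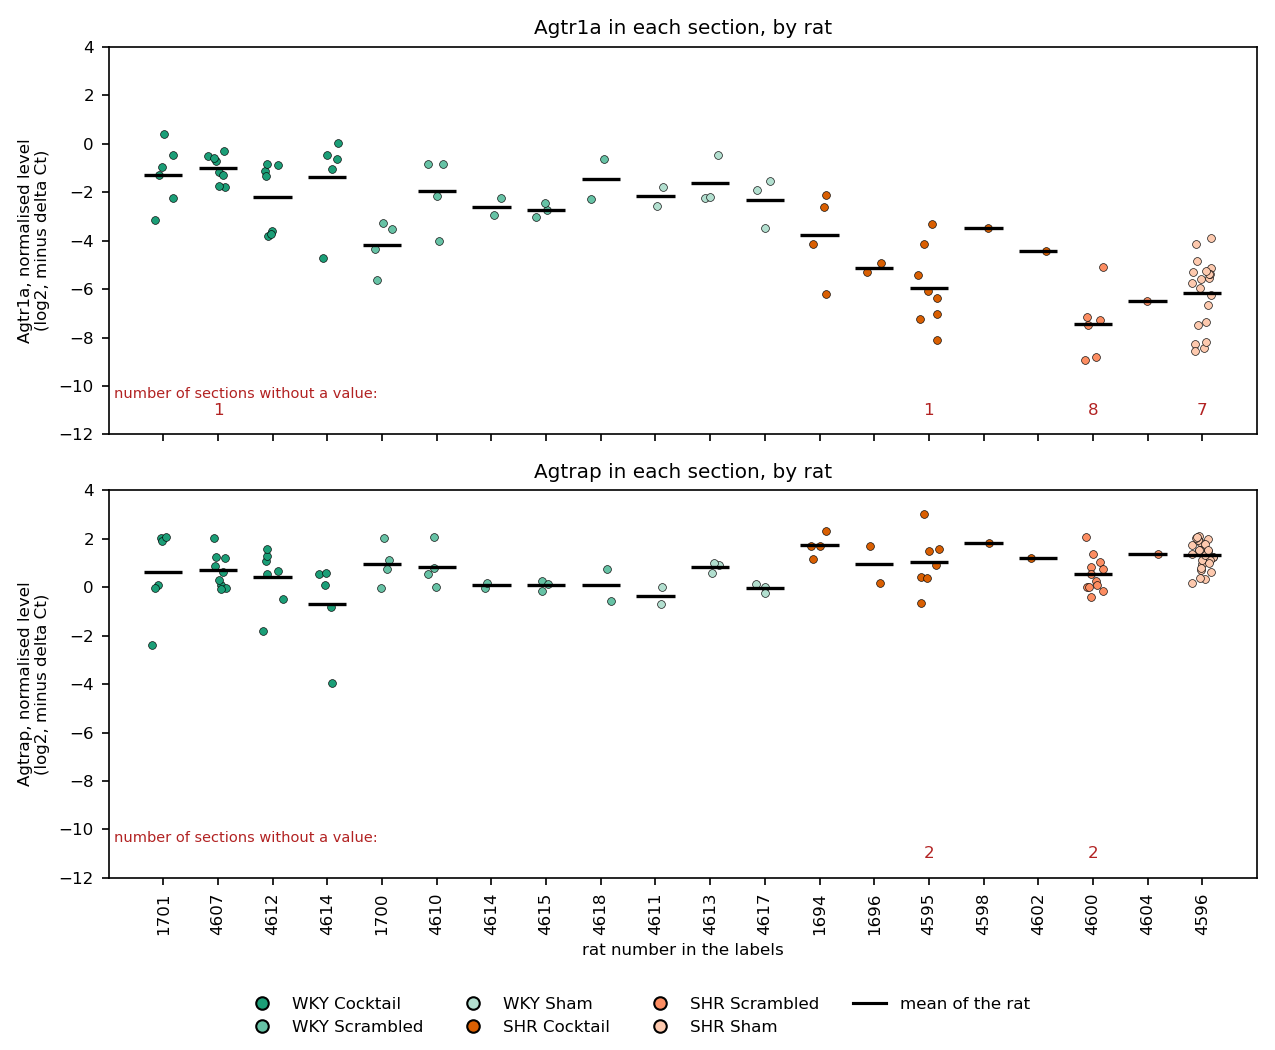
Normalised level (log2, minus ΔCt) of Agtr1a (upper panel) and Agtrap (lower panel) in each section, by rat number, coloured by strain and procedure. Points are sections, bars are the mean of a rat, and red digits count sections without a value. For Agtr1a the SHR rats sit lower than the WKY rats of the same procedure, and WKY rat 1700 at -4.19 lies among the SHR Cocktail rats. In rat 4600, 8 sections lack an Agtr1a value, and in rat 4596, 7 do. For Agtrap the rat means lie between -0.71 and 1.85, with WKY sections down to -3.94.

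Agtr1a was 8.52-fold lower in SHR than in WKY after Cocktail, at -4.55 ± 1.01 (SD, n = 5 rats) against -1.46 ± 0.51 (SD, n = 4). The log2 difference of -3.09 had a standard error of 0.565 and a 95% confidence interval from -4.28 to -1.90 (limma, Benjamini-Hochberg adjusted p = 0.000176). In that comparison 36.8% of the 19 genes passed, 26.3% lower and 10.5% higher in SHR, so that a strain difference in itself was common among these genes. After Scrambled, Agtr1a was at -6.96 ± 0.69 (SD, n = 2) in SHR and at -2.59 ± 1.03 (SD, n = 5) in WKY. This is a 20.8-fold lower level in SHR (-4.38, standard error 0.704, limma, adjusted p = 7.84e-05), in a comparison where 42.1% of the genes passed. The SHR Sham rat stood 4.13 below the WKY Sham mean of -2.04 ± 0.35 (SD, n = 3). That difference passed in limma (adjusted p = 0.00244, with 21.1% of genes passing) only with this rat assumed to vary as rats of the other groups did. With Scrambled and Sham averaged as controls, the difference was -4.25 with a standard error of 0.600 (adjusted p = 8.17e-06, with 47.4% of genes passing, 31.6% lower and 15.8% higher). An exact permutation test over rats gave an adjusted p of 0.0335 for Agtr1a after Cocktail, where 52.6% of the genes passed this test. It gave 0.0565 over the controls, 0.181 after Scrambled and 0.594 after Sham, where no gene passed it, and 8, 5 and 0 genes had an unadjusted p under 0.05. Among the 19 genes, only 2 had a lower log2 difference than Agtr1a after Cocktail, and 1 did over the controls. In all 59 SHR sections the authors had subtracted the median Ct, but in WKY only 1 of 50 sections was centred so, and the value lay on average 0.17 below the median. With every section centred on its own median, the Agtr1a difference after Cocktail was -3.11. Without any normalisation it was -1.72 (limma, adjusted p = 0.333), while the median over all genes then stood at 0.95, so that Agtr1a was at -2.67 relative to that median.

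Within SHR, the 5 Cocktail rats (-5.96 to -3.50) lay above both Scrambled rats (-7.45 and -6.48) and above the Sham rat (-6.16). Such a separation of Cocktail from Scrambled was seen for 15.8% of the 19 genes. In SHR, Cocktail exceeded Scrambled 5.33-fold in Agtr1a level (log2 difference 2.41, standard error 0.704, 95% confidence interval 0.93 to 3.90, limma, adjusted p = 0.0331), where 10.5% of the genes passed. The call was lost without rat 4600 (1.93, limma, adjusted p = 0.282) and without any 1 of Cocktail rats 1694, 1696, 4598 and 4602 (2.15 to 2.56). An exact permutation test over the 5 and 2 rats gave p = 0.0476 (adjusted p = 0.452). That p is the smallest that 5 against 2 rats can give. After adjustment over 19 genes a call was therefore nearly out of reach of this test. Against the mean of both controls the difference was 2.01 (standard error 0.638) and did not pass (limma, adjusted p = 0.107). Against Sham alone it was 1.61 (standard error 0.922, adjusted p = 0.999), with 1 rat on that side. Rat 4600 also had the lowest summed level of Th and Dbh of any SHR rat, -1.25 against 1.08 to 5.32 in the Cocktail rats. The other Scrambled rat, 4604, was within that range at 4.76, and so was the Sham rat at 2.46. Their Agtr1a levels were -6.48 and -6.16. Th and Dbh encode the enzymes of catecholamine synthesis that mark A2 neurons of the NTS. Dbh differed by 2.80 between these groups (standard error 1.31, adjusted p = 0.175) and Th by 1.98 (standard error 1.40, adjusted p = 0.332), and the part of such cells in the Agtr1a difference was not tested.

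In WKY, the Agtr1a level after Cocktail (-2.18 to -1.01) overlapped that after Scrambled (-4.19 to -1.46) and after Sham (-2.30 to -1.63). The difference from Scrambled was 1.13 (standard error 0.565, 95% confidence interval -0.06 to 2.32) and did not pass (limma, adjusted p = 0.631). No gene passed in that comparison, and 0 had an unadjusted p under 0.05. The SHR response exceeded the WKY response by 1.29, with a 95% confidence interval from -0.62 to 3.19 (limma, adjusted p = 0.545). A stronger response in SHR was therefore not shown. The number 4614, which the labels place in both procedures of WKY, had -1.35 in its 5 Cocktail sections and -2.59 in its 2 Scrambled sections.

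Agtrap, which encodes the receptor-binding protein, differed less between the strains than Agtr1a did. After Cocktail the WKY rats stood at 0.61 (1701), 0.71 (4607), 0.40 (4612) and -0.71 (4614). The SHR rats had 1.73 (1694), 0.94 (1696), 1.03 (4595), 1.85 (4598) and 1.22 (4602). Each SHR rat was above each WKY rat, in a comparison where 47.4% of the genes had groups apart, whereas the groups overlapped after Scrambled. There the WKY rats had 0.98 (1700), 0.85 (4610), 0.08 (4614), 0.08 (4615) and 0.09 (4618). The SHR rats had 0.53 (4600) and 1.37 (4604). The WKY Sham rats stood at -0.35 (4611), 0.83 (4613) and -0.03 (4617), and the SHR Sham rat at 1.32. The SHR Sham rat was thus above each WKY Sham rat.

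Agtrap was 2.14-fold higher in SHR than in WKY after Cocktail, at 1.35 ± 0.41 (SD, n = 5) against 0.26 ± 0.65 (SD, n = 4). The log2 difference was 1.10 with a standard error of 0.409 and a 95% confidence interval from 0.23 to 1.96 (limma, adjusted p = 0.0424). It did not pass over the controls (0.86, standard error 0.435, adjusted p = 0.124), after Scrambled (0.54, adjusted p = 0.359) or after Sham (1.17, adjusted p = 0.270). The call after Cocktail was lost without WKY rat 4614 (0.78, limma, adjusted p = 0.140) or 4612, without SHR rat 1694, 4595, 4598 or 4602, and in 9 of 16 other settings. Between procedures, Agtrap differed by 0.40 between Cocktail and Scrambled in SHR (95% confidence interval -0.68 to 1.47) and by -0.16 in WKY (-1.02 to 0.70). Neither passed (limma, adjusted p = 0.707 and 0.872). The SHR response exceeded that of WKY by 0.56, with a 95% confidence interval from -0.82 to 1.94.

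Ordered by level, Agtr1a ran from WKY Cocktail (-1.46) through WKY Sham (-2.04), WKY Scrambled (-2.59), SHR Cocktail (-4.55) and SHR Sham (-6.16) to SHR Scrambled (-6.96). Of the 5 steps between neighbours, that from WKY Scrambled to SHR Cocktail was the largest (1.96, standard error 0.532, limma, adjusted p = 0.00838). It changes both strain and procedure, and the rats of these groups overlapped. The groups were ordered by these same values, so the p-values of steps describe the order and do not test it. The other 4 steps, of 0.55 to 1.61, had adjusted p of at least 0.619. For Agtrap the order was SHR Cocktail (1.35), SHR Sham (1.32), SHR Scrambled (0.95), WKY Scrambled (0.42), WKY Cocktail (0.26) and WKY Sham (0.15). No neighbours in this order differed beyond their spread, with steps of 0.03 to 0.54.

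**Figure D2:**
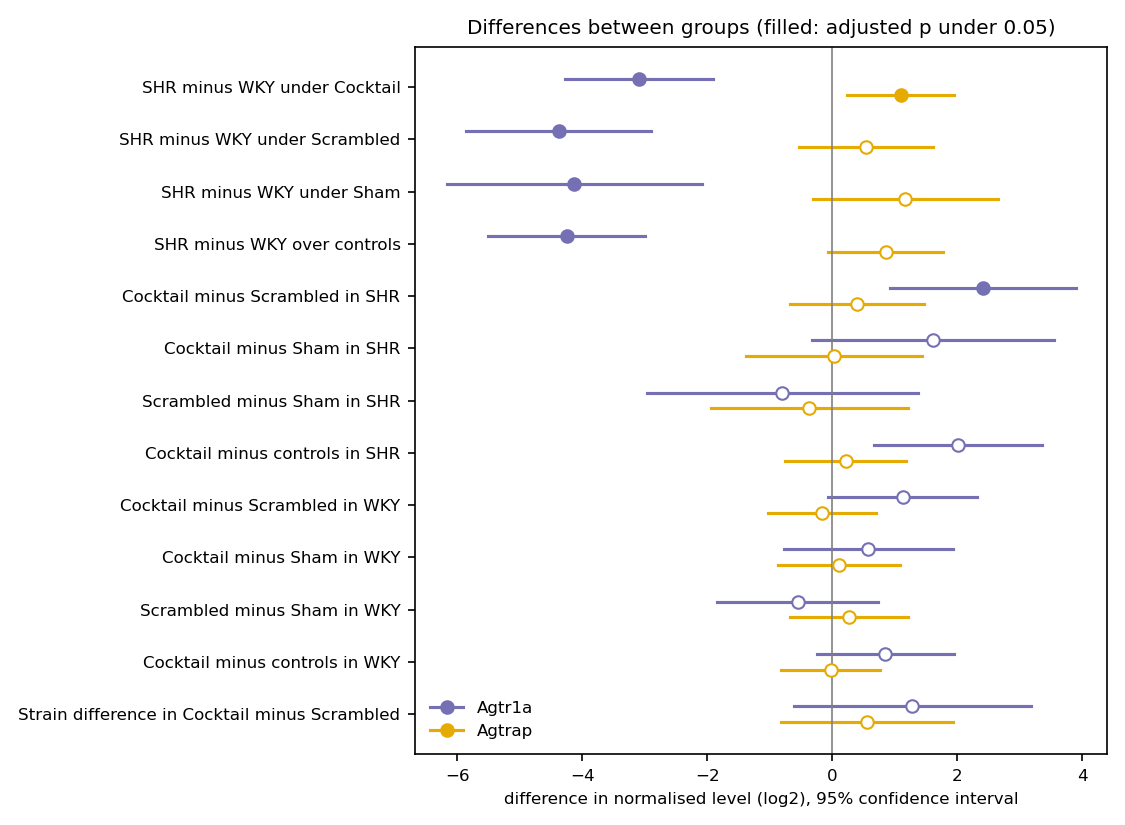
Difference in normalised level (log2) for Agtr1a (purple) and Agtrap (yellow) in each of 13 comparisons, with 95% confidence intervals from limma; filled points had an adjusted p under 0.05. Agtr1a lies between -4.38 and -3.09 in the 4 strain comparisons, and Agtrap between 0.54 and 1.17.

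The level of Agtr1a relative to Agtrap in the same section was examined next, since this difference does not contain the value that the authors subtracted. It is a difference in cycles between 2 amplicons, so its size within a rat is not a ratio of molecules, and it is compared here between rats. After Cocktail it was -1.89 (1701), -1.55 (4607), -2.59 (4612) and -0.65 (4614) in the WKY rats. In the SHR rats it was -5.49 (1694), -6.05 (1696), -7.62 (4595), -5.34 (4598) and -5.63 (4602). The strains did not overlap after Cocktail. The WKY Scrambled rats had -5.16 (1700), -2.81 (4610), -2.67 (4614), -2.82 (4615) and -1.56 (4618). The SHR Scrambled rats had -8.47 (4600, from 4 of 14 sections) and -7.85 (4604, 1 section). Both genes had a value in 5 of 15 SHR Scrambled sections and in all 15 WKY Scrambled sections. The WKY Sham rats had -1.81 (4611), -2.46 (4613) and -2.27 (4617), and the SHR Sham rat -7.60. All 8 SHR rats were below all 12 WKY sets, but rat 1700 at -5.16 lay next to the highest SHR rat at -5.34, while for 15.8% of the 19 genes on their own the strains were as fully apart.

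Relative to Agtrap, Agtr1a was 20.5-fold lower in SHR than in WKY after Cocktail (-4.36, 5 against 4 rats, exact permutation test, p = 0.00794, adjusted over 8 comparisons p = 0.0317). That p is the smallest that 5 against 4 rats can give. The call was lost in each of the 9 tests that left out 1 rat (-4.66 to -3.96, exact permutation adjusted p of 0.0714 or 0.114), where the smallest possible p is higher, and in 2 of 10 other settings. After Scrambled the difference was -5.16 (exact permutation p = 0.0476, adjusted p = 0.0952), and after Sham it was -5.42 (exact permutation p = 0.250), each the smallest p of its design. With strain labels exchanged within procedures over all 20 sets, the mean of the within-procedure differences was -4.98, a 31.5-fold lower level in SHR. Each procedure counted equally in this mean, so the SHR Sham rat weighed as much as the 5 SHR Cocktail rats together. The exact permutation p of this mean, 9.45e-05 (adjusted p = 0.000756), is the smallest that the 10584 arrangements can give. In limma, with every gene taken relative to Agtrap, Agtr1a had adjusted p of 1.22e-05 after Cocktail, 3.65e-05 after Scrambled and 0.00075 after Sham, where 55.6%, 38.9% and 27.8% of 18 genes passed. Between procedures in SHR, Cocktail stood above Scrambled by 2.13 with no overlap of rats, which did not pass after adjustment (exact permutation p = 0.0476, adjusted p = 0.0952). In WKY that difference was 1.33 with overlap (exact permutation adjusted p = 0.140). Cocktail and Sham differed in WKY by 0.51, and Scrambled and Sham by -0.82, both with an exact permutation adjusted p of 0.429.

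**Figure D3:**
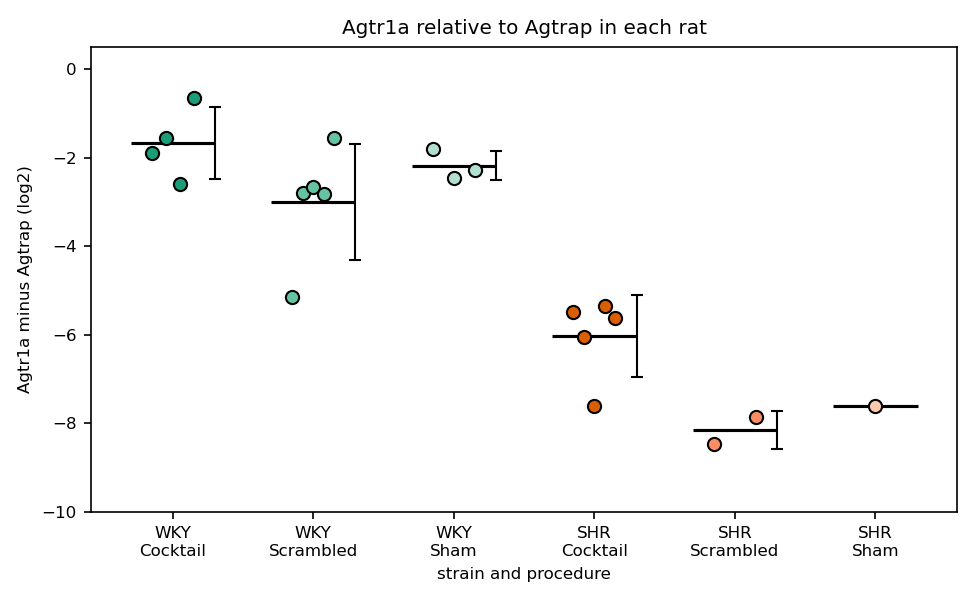
Agtr1a minus Agtrap (log2) for each rat, as the mean over sections with both values, by strain and procedure. Points are rats, horizontal lines group means and vertical bars 1 SD; SHR Sham has 1 rat and no bar. The 8 SHR rats lie between -8.47 and -5.34, below the 12 WKY sets between -5.16 and -0.65.

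The separation of the strains was also looked for with every other reported gene in place of Agtrap. Relative to 4 of the 17 genes (23.5%), namely Agtrap, Alox5ap, Fos and Il1b, the Agtr1a values of SHR and WKY rats did not overlap. Alox5ap encodes the activating protein of leukotriene synthesis, Fos an immediate-early transcription factor and Il1b a pro-inflammatory cytokine. Relative to Alox5ap, the median over rats was -6.64 in SHR and 1.28 in WKY. Relative to Ace, which encodes the enzyme that makes angiotensin II from angiotensin I, there was no such shift. The median was -6.08 in SHR (rats from -7.54 to -4.52) and -6.06 in WKY (-7.27 to -4.19). Set against Ace, the strain difference of Agtr1a was 0.12 after Cocktail, -1.11 after Scrambled and -0.48 after Sham, as a description without a test. Relative to the common reference transcript Actb, it was -2.91, -3.67 and -4.76 for the same procedures.

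Ace is the other measured gene of the angiotensin list whose values are given here. Its level was 9.53-fold lower in SHR than in WKY after Cocktail (-3.25, standard error 0.502, limma, adjusted p = 4.70e-05) and was lower by -3.75 over the controls (standard error 0.534, adjusted p = 8.17e-06). Between Cocktail and Scrambled in SHR, the difference of Ace was 0.95 (standard error 0.627) and did not pass (limma, adjusted p = 0.332). Of the 3 angiotensin genes, Agtr1a and Ace were thus lower in SHR and Agtrap was higher after Cocktail.

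Fos, Jun, Rgs4 and Ptgs2 were taken as a list of genes that respond to receptor activation or regulate it. Jun is the partner of Fos in AP-1, Rgs4 encodes a protein that shortens signalling by G proteins, and Ptgs2 is the inducible cyclooxygenase. After Cocktail, 2 of these 4 were lower in SHR than in WKY (Jun by -4.23 and Rgs4 by -2.41) and 0 were higher, against 26.3% lower and 10.5% higher over all 19 genes, with a list median of -1.67 against -0.23. Over the controls, Jun (-5.35) and Rgs4 (-3.06) were lower and Fos (2.11) was higher, against 31.6% lower and 15.8% higher over all 19 genes, with a list median of -1.28 against -0.53. Between Cocktail and Scrambled in SHR, 1 of the 4 passed, against 10.5% of all 19 genes. This was Ptgs2, which was lower by -4.04 (standard error 1.17). Ptgs2 lacked a value in 22 of 59 SHR sections and had a mean in 6 of 8 SHR rats. Its standard error against the 1 SHR Sham rat was the same, so its Scrambled side too rests on 1 rat. Rgs4 (2.31, limma, adjusted p = 0.0723), Fos (-2.41, adjusted p = 0.0921) and Jun (0.35, adjusted p = 0.877) did not pass between Cocktail and Scrambled in SHR.

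The tissue was checked with the markers that were measured. Th and Dbh were recorded in rats of every group, with a summed level of -1.25 to 5.32 in SHR rats and 0.95 to 5.79 in WKY rats. Of 4 neuron, 5 microglia and 3 endothelium markers on the list, 1 (Rgs4), 2 (Alox5ap and Ptgs1) and 1 (Ace) were measured, and of 3 astrocyte and 3 oligodendrocyte markers 0 were. The summed level of Alox5ap and Ptgs1 was 0.22 to 2.62 in SHR rats and -1.71 to -0.16 in WKY rats. Of these, Alox5ap was higher in SHR (4.44 after Cocktail, standard error 0.451, limma, adjusted p = 2.73e-07), while Ptgs1 differed by -0.50 and did not pass (adjusted p = 0.397). Dbh was lower in SHR over the controls (-3.72, standard error 1.11, adjusted p = 0.0117), where Th differed by -0.73 (adjusted p = 0.625). The part of cell make-up in the strain differences of Agtr1a and Agtrap was not tested.

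Detection differed between the genes. Agtr1a lacked a value in 17 of 109 sections and Agtrap in 4, and no section lacked both. Of the 17, 16 were SHR sections, so Agtr1a had a value in 43 of 59 sections from SHR (72.9%) and in 49 of 50 from WKY (98.0%). Among the reported genes, Il1b and Ptgs2 had more gaps than Agtr1a. A gap can be a transcript not found within the 30 cycles or a failed reaction, and the tables do not tell these apart. By group, Agtr1a had a value in 16 of 17 SHR Cocktail sections, 7 of 15 Scrambled and 20 of 27 Sham sections. These shares are 94.1%, 46.7% and 74.1%, with exact Clopper-Pearson 95% intervals of 71.3 to 99.9%, 21.3 to 73.4% and 53.7 to 88.9% for counting error only. Of the 8 Scrambled gaps, all came from rat 4600, whose other 6 sections had a value. All 4 gaps of Agtrap were in SHR, 2 in rat 4595 and 2 in rat 4600.

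Averaged over rats within procedures, the share of sections with an Agtr1a value differed by -17.98 percentage points between SHR and WKY and did not pass (exact permutation p = 0.0595, adjusted over both genes p = 0.119). Without rat 4600 the difference was -8.46 points (exact permutation p = 0.208). For Agtrap it was -3.86 points (exact permutation p = 0.159). In the 97 sections whose median Ct lay in the range that both strains cover, Agtr1a had a value in all 38 from WKY and in 43 of 59 from SHR. The difference over rats was then -18.9 points (exact permutation p = 0.0397, adjusted p = 0.0794).

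RNA input went with the gaps within SHR. The 16 SHR sections without an Agtr1a value had median Ct between 14.5 and 17.1, with a median of 15.7. The 43 with a value ran from 11.3 to 17.1, with a median of 14.4. The SHR sections without a value were thus among the SHR sections with less RNA, although the ranges overlapped. In WKY, the 49 sections with a value reached a median Ct of 23.1, and the 1 without lay at 20.7. Agtrap was recorded in all 16 SHR sections without Agtr1a, at a median level of 0.52 against 1.38 in the SHR sections where Agtr1a had a value. Where recorded, Agtr1a Ct had a median of 20.6 in SHR (13.9 to 23.9) and 16.4 in WKY (11.1 to 25.4). The Ct of Agtrap had medians of 13.8 in SHR and 13.7 in WKY. The mean Agtr1a levels of SHR rats 4595, 4596 and 4600 therefore leave out 1, 7 and 8 sections. With such gaps set at the cycle limit, the strain difference over the controls was -6.25 in place of -4.25, and that between Cocktail and Scrambled in SHR was 4.13 in place of 2.41.

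**Figure D4:**
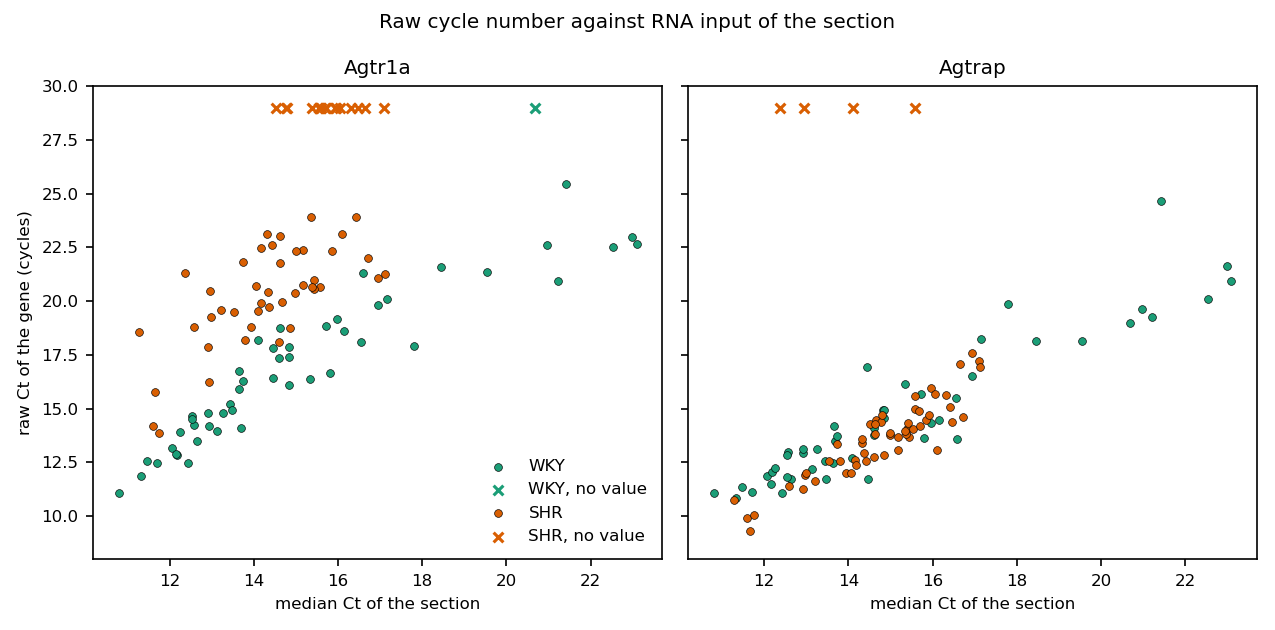
Raw Ct of Agtr1a (left) and Agtrap (right) in each section against the section's median Ct, where a later Ct stands for less RNA; crosses at the top mark sections without a value and have no height of their own. For Agtr1a the SHR points mostly lie above the WKY points at like input, with crosses in 16 SHR sections between 14.5 and 17.1, while for Agtrap the strains overlap.

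Sections of a rat differed from each other more than rats of a group did. For Agtr1a the SD within a rat was 1.33 and that between rats of a group 0.56, so that 15.2% of the variance lay between rats. For Agtrap these were 0.91, 0.29 and 9.47%, and for the difference of both 1.51, 0.66 and 15.8%. In SHR Sham rat 4596, Agtr1a ran from -8.55 to -3.89 over 20 sections and Agtrap from 0.18 to 2.11 over 27. Agtr1a had the wider range in this rat and in 3 of the 6 rats with 5 or more sections with both genes, this rat included, and Agtrap had it in the other 3. Rats with 1 section (4598, 4602 and 4604) carry this section spread in their mean.

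Across sections of the same rat, Agtr1a and Agtrap hardly varied together. The Spearman correlation was 0.04 over 77 sections of 13 rats, after each rat's mean was subtracted. By rat, it ran from -0.26 (4595, 6 sections) to 0.60 (4614 under Cocktail, 5 sections) and was 0.13 in rat 4596 (20 sections). On raw Ct, which is not corrected for the RNA input of a section, it was 0.74. What raised it there was not tested. With sections centred on the genes other than the pair it was 0.20. These correlations share sections, chips and the subtracted value, and are given as descriptions.

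The genes that varied most like Agtr1a within rats were Dbh (0.34 over 78 sections), Il1b (0.26 over 43) and Il1a (0.23 over 79), the last 2 encoding interleukins 1β and 1α. The least like it were Ptgr1 (-0.28), an enzyme that inactivates prostaglandins and leukotriene B4, and Fos (-0.18). All were weak. Agtrap had closer companions, with 0.63 for Alox5ap (88 sections), 0.45 for Ace (94) and 0.40 for Actb (94). The least like Agtrap were Il1b (-0.35 over 49 sections) and Il1a (-0.22 over 91). Without rat 4596, which had the most sections, the values were 0.69 for Agtrap with Alox5ap and 0.32 for Agtr1a with Dbh.

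Over the 20 rat means, Agtr1a was most like Ace (0.78), Dbh (0.76) and Rgs4 (0.69), and Agtrap was most like Alox5ap (0.73), Il1b (0.29) and Fos (0.24). Il1b had a mean in 18 of the rats. These values mix strains with different levels. Within the 8 SHR rats, Agtr1a had 0.71 with Ace, 0.83 with Dbh and 0.83 with Rgs4, and within the 12 WKY sets 0.11, 0.54 and 0.11. Within a strain the procedures are still mixed, and all SHR Cocktail rats lay above all SHR control rats for Agtr1a. For Agtrap with Alox5ap the values were 0.67 in SHR and 0.15 in WKY. Agtr1a and Agtrap themselves stood at -0.55 over all 20, at 0.60 within SHR and at 0.02 within WKY, so the negative value appeared only with both strains pooled.

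**Figure D5:**
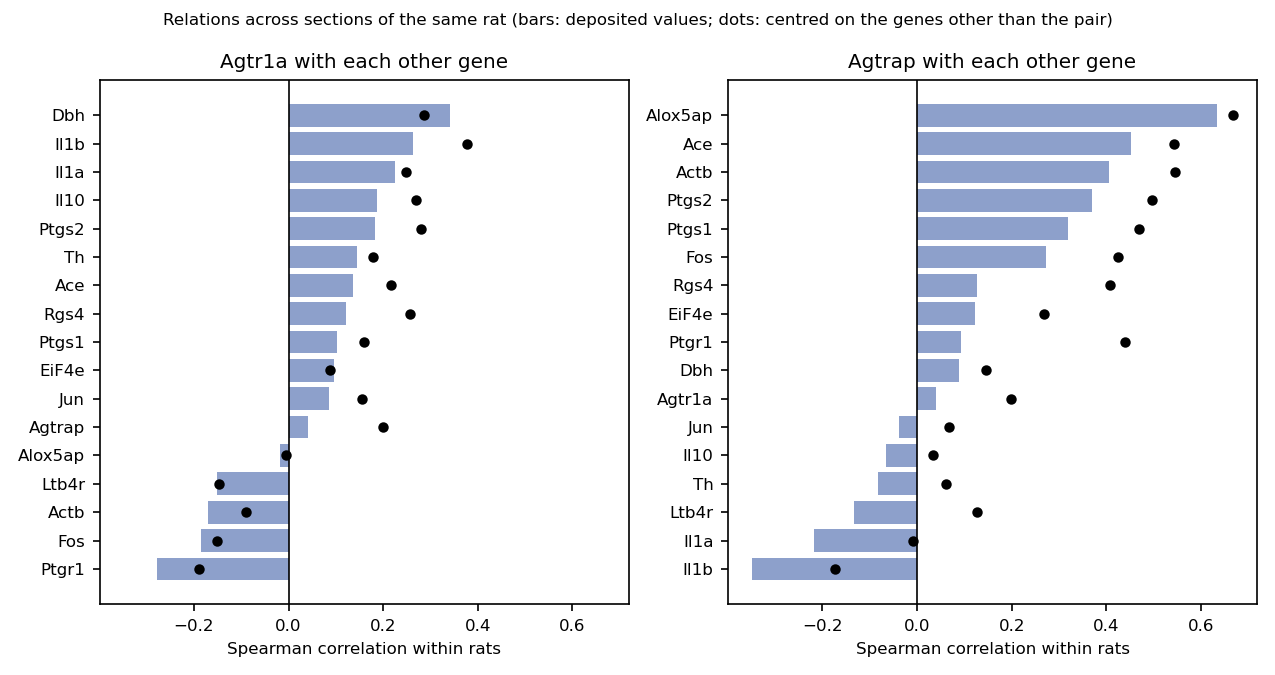
Spearman correlation of Agtr1a (left) and Agtrap (right) with each other reported gene across sections, after subtraction of each rat's mean. Bars use the deposited normalised values and dots use sections centred on the genes other than the pair. For Agtr1a the bars run from -0.28 (Ptgr1) to 0.34 (Dbh), and for Agtrap from -0.35 (Il1b) to 0.63 (Alox5ap).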

How the data were processed

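The authors measured 19 transcripts in laser-captured NTS sections on BioMark microfluidic chips with EvaGreen and 30 PCR cycles, and Ct was called with the Fluidigm Real-Time PCR Analysis Software, per the labels' protocols. The deposited raw table holds Ct, given here the unit score. The deposited normalised values are on a log2 scale, as minus ΔCt. This direction was found from the values, since the normalised value plus the Ct of the matching raw section was constant over genes (tolerance 1e-06). The sources used here do not give the rule behind the subtracted value. For 44 WKY sections the matching raw column carried the name of another section of that rat, which leaves rat means unaffected. Both tables lack 160 of 2071 values, which were left out of means.

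Groups and rats came from the labels. The rat means of the normalised values entered limma 3.58.1 (R 4.3.3), with a coefficient for each of the 6 groups, for 13 comparisons. Groups of 1 or 2 rats borrow the spread of the others. Its two-sided p-values were adjusted over the 19 genes (Benjamini-Hochberg), with a threshold of 0.05. Agtr1a minus Agtrap and the share of sections with a value were tested with exact two-sided permutation tests over rats (numpy 2.4.6). Clopper-Pearson intervals came from scipy 1.17.1. Variance components came from lme4 1.1.37. The code was tested on simulated data. Rats share numbers between groups only for 4614. The p-values measure the spread between rats as labelled. The design text states 4-5 rats per group. The animal numbers differ from this and were followed. A no-surgery condition named in the labels' protocols was not analysed here.

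The members, lists and tests were chosen with earlier results of these data known. Besides Agtr1a and Agtrap, the text names Ace, the list Fos, Jun, Rgs4 and Ptgs2, cell markers, and for each member the 3 genes with the highest and the 2 with the lowest correlation within rats and the 3 highest over rat means. Genes relative to which the strains did not overlap were named after their values were seen. The values of 1 of the 19 genes, which entered all fits, are not reported here. Alternatives concerned the normalisation, missing values, sections, rats and the test.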

Additional observations from a re-analysis of the deposited data

Results flagged for a closer look

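The share of sections with a value stood apart from the other rats of the group in 2 rats, by the gap of the lowest rat to the next one in groups of 4 or more rats. In SHR Cocktail, rat 4595 had an Agtr1a value in 88.9% of its 9 sections, an Agtrap value in 77.8% and both in 66.7%, while each of the other 4 rats had both values in every section. In WKY Cocktail, rat 4607 had an Agtr1a value in 88.9% of its 9 sections, and so both values in 88.9%, while the other 3 rats had both in every section. These rats also had the most sections of their groups. In all, 18 sets of rat values, mean levels as well as shares, were looked at in this way. Chance flags about 1 in 20 of such sets if values are normally distributed, which shares capped at 100% are not. Where all other rats stand at 100%, a single gap in a rat is enough to be flagged.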

How the results depend on the processing

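Log2 differences are given throughout, and no cause of a change was tested. The Agtr1a strain difference kept its sign in every alternative run. It lost its call under Cocktail (-1.72) and Sham (-5.25) without normalisation, and in the exact permutation test over the controls (-4.25, adjusted p = 0.0565), under Scrambled (-4.38, adjusted p = 0.181) and under Sham (-4.13, adjusted p = 0.594), where few rats limit the p. For Cocktail minus Scrambled in SHR, the Agtr1a call was lost with sections centred on the other 17 genes (2.41) and without normalisation (3.37). It was also lost with Actb (2.20) or the mean of Actb and EiF4e (2.41) as reference. The same held without sections missing more than 2 genes (2.33) and without rats of 1 section (2.51). With only the groups compared it was lost as well (2.41, limma, adjusted p = 0.0917). In the exact permutation test (2.41) it did not pass, but there few rats limit the p. Leaving out 1 rat at a time gave 1.93 to 2.90. Cocktail minus controls in SHR passed with missing values at the lowest value (2.52) or at the cycle limit (3.81), and was 1.75 to 2.37 with 1 rat left out, passing without Cocktail rat 4595 or Scrambled rat 4604. Cocktail minus Sham of Agtr1a in WKY turned to -0.74 without normalisation.

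The Agtrap strain difference under Cocktail did not pass with every section centred on its median (1.08) or on the other 17 genes (1.27), without normalisation (2.59), with missing values at the lowest value (0.88) or at the cycle limit (0.32), with medians over sections (0.73), without rats of 1 section (0.98), without both sets of rat 4614 (0.78) or with only the groups compared (1.10, adjusted p = 0.0769). It was 0.78 to 1.25 with 1 rat left out. Over the controls it passed with the mean of Actb and EiF4e as reference (1.12) or without sections missing more than 2 genes (0.99). It turned to -0.64 under Scrambled with missing values at the cycle limit and to -0.19 under Sham without normalisation.

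The Agtrap differences between procedures, none of which passed, changed sign as follows. Cocktail minus Scrambled in WKY was 0.13 with Actb, 0.31 with Actb and EiF4e, 0.21 with medians and 0.075 without rat 4614, and -0.31 to 0.16 with 1 rat left out. In SHR it was -0.023 to 0.82 with 1 rat left out. Cocktail minus Sham in SHR was -0.065 with the other 17 genes as centre, -0.095 with Actb and EiF4e, -0.19 and -0.75 with missing values at the lowest value and the cycle limit, -0.059 with medians, -0.052 with weights by sections, -0.067 without sections missing more than 2 genes, -0.089 without rats of 1 section, and -0.093 to 0.13 with 1 rat left out. In WKY it was -0.14 and -0.087 with both ways of centring, -1.40 without normalisation, -0.46 with Actb, -0.071 with Actb and EiF4e, and -0.14 to 0.45 with 1 rat left out. Scrambled minus Sham in WKY was -1.07 without normalisation, -0.59 with Actb and -0.38 with Actb and EiF4e, and in SHR it was -0.79 to 0.054 with 1 rat left out. Cocktail minus controls in WKY was 0.12 with Actb and EiF4e, 0.31 with medians and 0.25 without rat 4614, and -0.18 to 0.29 with 1 rat left out.

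For Agtr1a minus Agtrap, the strain difference under Cocktail did not pass after adjustment without rats of 1 section (-4.72), without both sets of rat 4614 (-4.02) or with any 1 rat left out (-4.66 to -3.96), where the smallest p that the rats allow also rises. Limma over the 18 genes relative to Agtrap called it under Scrambled (-5.16, adjusted p = 3.65e-05) and Sham (-5.42, adjusted p = 0.00075), where 38.9% and 27.8% of these genes passed. The strain difference in Agtr1a detection passed unadjusted in sections of shared input range (-18.9 points) and without rats of 1 section (-28.0 points), and was -27.5 to -8.46 points with 1 rat left out. Of 805 alternative values of 42 results, 706 were counted as unchanged, 44 lost a call, 12 gained one and 38 changed sign. The other 5, all correlations on raw Ct, moved by more than the spread between rats. Unchanged meant the same direction and side of the threshold. For mixed models and correlations, which have no p here, it meant a shift smaller than the spread between rats. The scaling moved the median of all genes for SHR minus WKY under Cocktail from -0.23 to between -0.27 and 0.95, and Agtr1a lay at -2.87 to -2.64 relative to that median under each scaling. No paired analysis was possible because the groups compared share at most 1 rat number. Rats, not sections, limit the precision, most of all in SHR Scrambled (2) and SHR Sham (1).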
